A study of Mus musculus with 6 samples.

Results

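The genes described here encode 10 proteins that bind RNA carrying N6-methyladenosine (m6A), the most common internal mark of mRNA. They were taken from the table of RNA-seq counts by matching its gene identifiers to the annotation of GRCm38, and all 10 were among the 53421 genes of the table. They are the YTH-domain genes Ythdf1, Ythdf2, Ythdf3, Ythdc1 and Ythdc2, and the genes Igf2bp1, Igf2bp2, Igf2bp3, Hnrnpa2b1 and Fmr1, whose products read m6A through other domains. The question was whether the level of any other reader differed when Ythdf2 was knocked down (KD). Compensation between paralogs was looked for at the level of the message only, and protein levels and binding were not analysed here.

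The study asked how YTHDF1 and YTHDF2 act in the growth of axons of cerebellar granule cells (GCs). The 6 libraries came from GCs of C57BL/6 mice, which the labels give as postnatal day 8, without a stated genetic change of the mice. Dissociated GCs were cultured and infected with lentivirus that carried an shRNA, a hairpin that silences a chosen mRNA, directed against Ythdf2 in 3 libraries (shYthdf2) and against no stated gene in the 3 control libraries (shCtrl). By the study's methods, infected cells of both groups were selected with puromycin before total RNA was taken, the replicates were biological, and the library names point to hairpin 3, so that a single hairpin stands for the KD here. The labels do not say which cultures or litters the replicates came from, so p-values may measure a spread that is in part technical.

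The labels contradict each other on which libraries are the KD. The library names, which are also the column names of the counts, were followed. The titles and the genotype entries say the opposite, and if they are right, every direction given below is inverted. With the names, the target Ythdf2 was lower in all 3 libraries named for the KD than in all 3 controls, and with the titles it would be higher in its own KD. This value was not used to assign the groups.

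Readers decide what happens to an mRNA that carries m6A. YTHDF proteins work in the cytoplasm, where YTHDF2 brings the CCR4-NOT deadenylase to its targets and speeds their decay, and where YTHDF1 was first described as a promoter of translation and YTHDF3 as a partner of both. In neurons, readers also reach axons and dendrites, where they act on local translation.

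The YTHDF paralogs are close enough in sequence that reads could in principle be assigned to the wrong one, so their sequences were compared first. Over the aligned coding sequence, Ythdf1 and Ythdf2 were identical at 74.2% of positions, Ythdf1 and Ythdf3 at 73.8%, and Ythdf2 and Ythdf3 at 75.4%. The longest run of bases shared by any of their transcripts was 22 for Ythdf1 and Ythdf2 and 17 for each of the other pairs. No stretch of 50 bases was shared between any of the 10 readers. The most similar stretch of 90 bases in all 3 paralogs was taken from the reference genome (GRCm38), as 5′ to 3′ coding sequence, to show how close they are. Capitals mark the 23 positions at which the paralogs are not all the same, and the other 67 are identical.
Ythdf1, chr2:180911122-180911211, minus strand, exon 5 of 6: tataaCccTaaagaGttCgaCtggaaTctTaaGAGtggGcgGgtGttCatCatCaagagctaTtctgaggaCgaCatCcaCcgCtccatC
Ythdf2, chr4:132204567-132204656, minus strand, exon 4 of 5: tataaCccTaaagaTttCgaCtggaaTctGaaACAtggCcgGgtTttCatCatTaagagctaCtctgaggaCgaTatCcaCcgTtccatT
Ythdf3, chr3:16204900-16204989, plus strand, exon 5 of 6: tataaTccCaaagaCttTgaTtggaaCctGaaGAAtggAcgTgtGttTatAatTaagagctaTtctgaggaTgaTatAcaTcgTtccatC
Even in this window, differing bases are spread along the sequence. Of the 50-base stretches of Ythdf2, 7.49% (349) also occur in 2 other genes. Of these, 312 occur in Gm6823, which had 0 counts in every library, and the counts of the other gene were not checked. Ythdf1 and Ythdf3 share no such stretch with another gene. Fmr1 shares 2.23% of its stretches, most of them with Dffa, which had up to 899 counts in a library. Ythdc2 shares 0.804%, the most with Gbf1, which had up to 3754 counts.

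The libraries were checked against each other first. They held 17246821 to 21546595 counts, and the readers took 0.132% to 0.181% of them. Replicate 2 stood apart in both groups. It differed from replicates 1 and 4 of its own group by a chi-square of 32.9 to 54.8 per degree of freedom, where 1 would be counting noise, while replicates 1 and 4 differed from each other by 3.34 in shYthdf2 and 4.64 in shCtrl. Between the groups, the pair of replicate 2 libraries differed by 22.1. The readers, except Igf2bp1 with its low counts, and their lists are therefore also given without replicate 2 below. The summed level of 12 granule cell markers was 10400 to 10800 CPM (counts scaled to the size of the library) in shYthdf2 and 10500 to 10900 in shCtrl. This was the highest of the 9 lists of cell type markers, and the groups were not separated in the sum. A sum is carried by its most abundant genes, and single markers did differ. Of the 12, 5 did not overlap between the groups, against 26% of all genes. In the test described below, 3 (25%) had an unadjusted p under 0.05, all lower in the KD, against 20.1% of all genes, of which 10.6% were lower. None of the 12 passed the adjusted threshold there. Markers of other cells were present as well. The sum over 7 markers of GABAergic interneurons was 641, 773 and 641 CPM in shYthdf2 replicates 1, 2 and 4 and 454, 582 and 443 in shCtrl. Purkinje cell markers were at 124 to 135 in shYthdf2 and 94.5 to 107 in shCtrl, so that both neuronal lists were higher in every KD library than in every control library. Oligodendrocyte lineage markers were at 726, 967 and 750 against 281, 945 and 271, a difference seen in replicates 1 and 4. Microglia markers were at 57.6, 23.1 and 62.7 against 16, 44.8 and 14.7. Astrocyte and Bergmann glia markers were at 728, 665 and 719 against 482, 805 and 488. Both sums were higher in the KD in replicates 1 and 4 and lower in replicate 2. Of the 10 astrocyte and Bergmann glia genes, 9 had a positive log2 fold change in the test described below. The exception was Slc1a2, lower in the KD at -1.44, without overlap between the groups. Vascular cell and fibroblast markers were at 221, 578 and 228 against 165, 465 and 163, highest in replicate 2 of both groups. Markers of proliferating progenitors were at 146, 179 and 150 against 126, 173 and 125. Unipolar brush cell markers were at 583, 616 and 575 against 544, 642 and 549. In that last list Eomes was lower in the KD, with a log2 fold change of -1.80, while its other genes overlapped between the groups. The part of these other cells in the values of the readers was not tested, and no marker list had a gene at 0 in all libraries.

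Normalized counts below are counts scaled by TMM, a factor that corrects for the composition of each library, to a common library size. Ythdf2, the target of the hairpin (ENSMUSG00000040025, chr4:132184912-132212303, minus strand), had 501, 402 and 501 normalized counts in shYthdf2 replicates 1, 2 and 4 and 618, 841 and 628 in shCtrl. Every KD library was below every control library. The KD libraries kept 67.3% of the control level, and the log2 fold change was -0.57 (standard error, SE, 0.16, 95% interval -0.96 to -0.19). The adjusted p was 0.125 in edgeR's quasi-likelihood test, adjusted by the Benjamini-Hochberg method over 17214 genes. In RNA of mixed cultures, fewer cells of a type and less RNA per cell cannot be told apart, and this holds for each of the readers.

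The difference in Ythdf2 was not the same in every pair of libraries with the same number. Its log2 difference was -0.30 in replicate 1, -1.06 in replicate 2 and -0.33 in replicate 4. Replicate 2 was also the one in which the other genes differed least between the groups, with a median absolute log2 difference over all tested genes of 0.22, against 0.34 and 0.32 in replicates 1 and 4. Without replicate 2 in either group, the log2 fold change of Ythdf2 was -0.32 (adjusted p = 0.00124 in the same edgeR test, with 2 libraries against 2), where 52.7% of all tested genes passed the threshold of 0.05. The size of the KD in the mean of the 3 replicates thus rests in part on replicate 2.

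**Figure D1:**
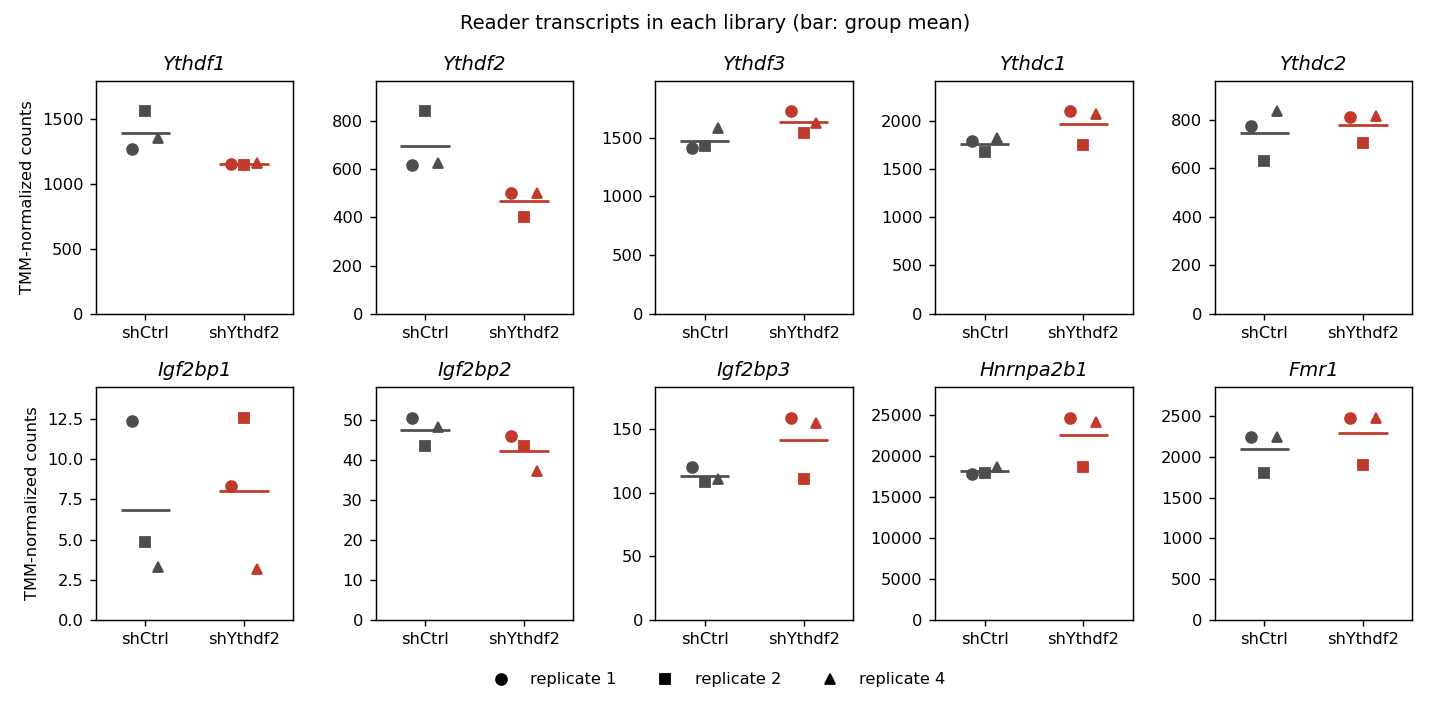
Each panel plots the TMM-normalized counts of 1 reader (vertical axis, from 0) in the shCtrl and shYthdf2 libraries, with a symbol for each replicate number and a bar at the group mean. The groups do not overlap for Ythdf1, Ythdf2 and Hnrnpa2b1, and replicate 2 is the highest control value and the lowest KD value for Ythdf2, at 841 and 402.

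Ythdf1 (ENSMUSG00000038848, chr2:180904377-180920949, minus strand), the paralog linked to translation, was lower, not higher, in the KD libraries. It had 1152, 1151 and 1162 normalized counts in shYthdf2 replicates 1, 2 and 4 and 1268, 1561 and 1357 in shCtrl, without overlap. Its log2 fold change was -0.27 (SE 0.11, 95% interval -0.52 to -0.02), with an adjusted p = 0.214 by edgeR. The interval, which is not adjusted for the number of genes, runs from 69.7% to 98.4% of the control level, so a higher level in the KD is outside it. The KD libraries varied by a coefficient of variation of 0.535%, which is less than the 2.98% that counting alone would give.

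Ythdf3 (ENSMUSG00000047213, chr3:16183212-16217037, plus strand) was the paralog with higher values in the KD libraries, although the groups overlapped. It had 1723, 1539 and 1624 normalized counts in shYthdf2 and 1415, 1424 and 1580 in shCtrl. The log2 fold change was 0.15 (SE 0.10, 95% interval -0.08 to 0.37, adjusted p = 0.442 by edgeR), or 111% of the control level with an interval of 94.7% to 129%. Within replicates 1, 2 and 4 the log2 difference was 0.28, 0.11 and 0.04, positive in all 3 and smallest in replicate 4. A rise of Ythdf3 beyond 129% of the control level is outside the interval, while a smaller rise and no rise at all are both inside it.

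To see whether the summed message of the family was kept, the 3 paralogs were put on a common scale of normalized counts per kilobase of exon. The sum was 778, 722 and 763 per kilobase in shYthdf2 replicates 1, 2 and 4 and 781, 920 and 841 in shCtrl. All KD libraries were below all control libraries, although replicate 1 differed by only 778 against 781. The mean sum was 754 ± 29.1 (SD, n = 3) in shYthdf2 and 847 ± 69.6 (SD, n = 3) in shCtrl, or 89.0% of the control. The log2 difference of the sum was -0.165, and it was -0.105 without shCtrl replicate 2 and -0.0733 without replicate 2 of both groups. Ythdf1 and Ythdf3 together were at 669, 634 and 653 per kilobase in shYthdf2 and 646, 736 and 704 in shCtrl. The groups overlapped, with the KD library above its control in replicate 1 and below it in replicates 2 and 4, and the mean in the KD was 93.8% of the control.

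Within the sum, the parts shifted. Ythdf2 made up 14.1%, 12.2% and 14.4% in shYthdf2 and 17.3%, 20.0% and 16.3% in shCtrl, a difference of -4.34 percentage points between the means. Ythdf3 made up 40.2% ± 0.904 (SD, n = 3) in shYthdf2 and 32.5% ± 3.26 (SD, n = 3) in shCtrl, and Ythdf1 made up 46.2% ± 1.73 and 49.6% ± 1.37. For each of the 3 shares the groups did not overlap, which was also so for the levels of 26% of all single genes. The shares add up to the whole, and the ratios below come from the same 3 levels, 1 of them that of the target. They are therefore not separate observations. Per library, the log2 ratio of Ythdf2 to Ythdf3 differed by -0.71 between the groups, with means of -1.57 ± 0.12 and -0.86 ± 0.30 (SD, n = 3 each). The ratio of Ythdf1 to Ythdf3 differed by -0.41 and that of Ythdf2 to Ythdf1 by -0.30, and the groups overlapped in none of them. Without replicate 2 of both groups, the share of Ythdf2 differed by -2.60 percentage points, and the log2 ratios differed by -0.48 (Ythdf2 to Ythdf3), -0.34 (Ythdf1 to Ythdf3) and -0.14 (Ythdf2 to Ythdf1). The direction of all 3 ratios held in that setting, and each was smaller. With 3 libraries against 3, an exact permutation test cannot give a p under 0.1.

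**Figure D2:**
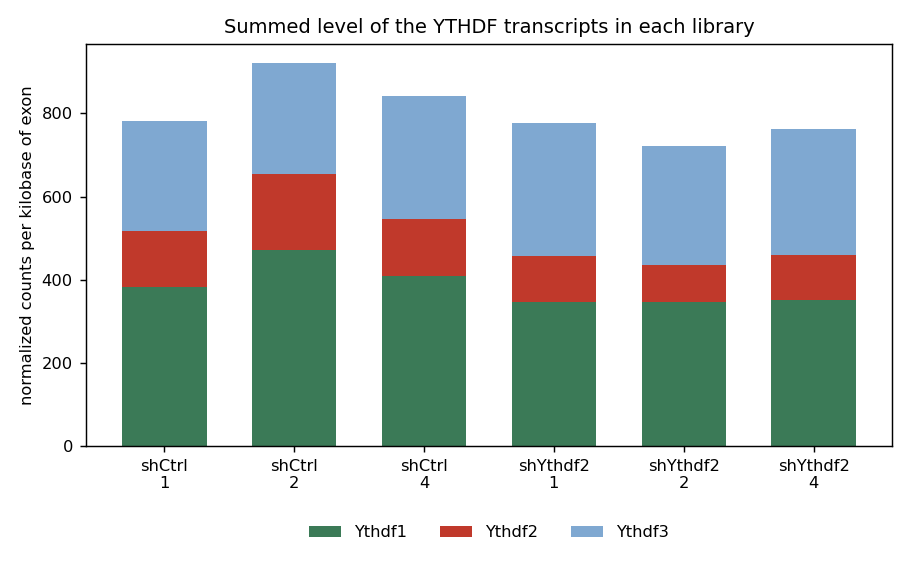
Stacked bars give the normalized counts per kilobase of exon (vertical axis, from 0) of Ythdf1, Ythdf2 and Ythdf3 in each of the 6 libraries. The total height is 781 to 920 in shCtrl and 722 to 778 in shYthdf2, with a smaller Ythdf2 part in each KD library.

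The nuclear and the germline-linked YTH reader both overlapped between the groups. Ythdc1 (ENSMUSG00000035851, chromosome 5), the nuclear reader that acts in splicing and export, had 2100, 1750 and 2069 normalized counts in shYthdf2 and 1789, 1681 and 1827 in shCtrl. Its log2 fold change was 0.16 (SE 0.10, 95% interval -0.08 to 0.40, adjusted p = 0.437 by edgeR). Ythdc2 (ENSMUSG00000034653), a helicase known for its part in meiosis, had 811, 702 and 815 normalized counts in shYthdf2 and 773, 629 and 834 in shCtrl. Its log2 fold change of 0.06 (SE 0.14, 95% interval -0.26 to 0.38, adjusted p = 0.845 by edgeR) turned to -0.05 when shCtrl replicate 2 was left out. Without replicate 2 of both groups, Ythdc2 was at 0.01 (adjusted p = 0.866 by edgeR). Both intervals contain 0 and reach 132% and 130% of the control level, so a moderate difference lies inside them.

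The IGF2BP readers, which stabilize mRNAs with m6A and of which IGF2BP1 and IGF2BP3 are best known from fetal tissue, were the lowest of the 10. Igf2bp1 (ENSMUSG00000013415) had 8, 13 and 3 raw counts in shYthdf2 replicates 1, 2 and 4 and 14, 5 and 3 in shCtrl, too few to pass the filter on low counts. Fitted without that filter, its log2 fold change was 0.20 (SE 0.65, adjusted p = 0.905 by edgeR). Igf2bp2 (ENSMUSG00000033581) had 46.0, 43.6 and 37.1 normalized counts in shYthdf2 and 50.6, 43.6 and 48.3 in shCtrl. Its log2 fold change was -0.17 (SE 0.23, adjusted p = 0.727 by edgeR), -0.08 without shYthdf2 replicate 4 and -0.25 without replicate 2 of both groups. At this depth a change of Igf2bp2 between 61.1% and 130% of the control level was inside the 95% interval. Igf2bp3 (ENSMUSG00000029814) had 159, 111 and 155 normalized counts in shYthdf2 and 120, 108 and 111 in shCtrl. Replicates 1 and 4 were above all control libraries and replicate 2 was level with them, and the log2 fold change was 0.33 (SE 0.20, 95% interval -0.15 to 0.80, adjusted p = 0.413 by edgeR). Igf2bp3 overlaps Malsu1 on the other strand over 1529 exon bases, 18.1% of its 50-base stretches, and Malsu1 had up to 225 counts in a library. The sources used here do not say whether counting used the strand, so that reads of these genes could be mixed.

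Among the readers without a YTH domain or an IGF2BP name, Hnrnpa2b1 had higher values in the KD. Hnrnpa2b1 (ENSMUSG00000004980, chr6:51460932-51469894, minus strand), a nuclear protein that binds pre-mRNA and takes part in microRNA processing and splicing, had 24661, 18690 and 24094 normalized counts in shYthdf2 and 17767, 17911 and 18603 in shCtrl. The groups did not overlap, but the lowest KD library, replicate 2, was just above the highest control library. Its log2 fold change was 0.31 (SE 0.13, 95% interval 0.01 to 0.62, adjusted p = 0.235 by edgeR), or 124% of the control level. Within replicates 1, 2 and 4 the log2 difference was 0.47, 0.06 and 0.37. Without shYthdf2 replicate 2 the log2 fold change was 0.43 with an adjusted p = 0.0491, and 4.7% of all genes passed in that fit. Fmr1 (ENSMUSG00000000838, chromosome X), whose product binds ribosome-bound mRNAs in neurons, had 2484, 1903 and 2485 normalized counts in shYthdf2 and 2247, 1809 and 2245 in shCtrl. The log2 fold change of Fmr1 was 0.13 (SE 0.14, 95% interval -0.21 to 0.46, adjusted p = 0.671 by edgeR), and replicate 2 was the lowest library of each group. With a library left out, the value of Fmr1 went from 0.03 without shCtrl replicate 2 to 0.24 without shYthdf2 replicate 2, and it was 0.06 without shYthdf2 replicate 1 or 4.

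**Figure D3:**
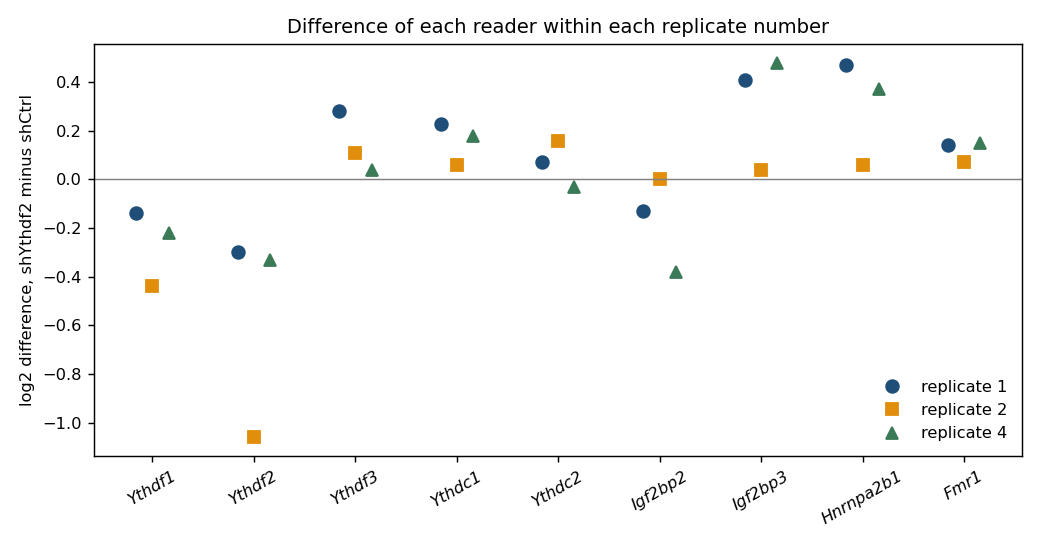
Points give the log2 difference (shYthdf2 minus shCtrl, vertical axis) of each reader between libraries with the same number, for replicates 1, 2 and 4. Ythdf2 stands lowest in replicate 2, at -1.06, while Igf2bp3 and Hnrnpa2b1 are higher in replicates 1 and 4, at 0.37 to 0.48, than in replicate 2, at 0.04 and 0.06.

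Of all 9 readers tested, 0 passed an adjusted p of 0.05 in edgeR's test, where 0.604% of all genes did. DESeq2 called 1 of the 9, Ythdf2 (adjusted p = 0.0406), against 7.67% of all genes, and limma-voom called 0, against 0.139%. At an unadjusted p under 0.05 there were 3, Ythdf2 (0.00938), Ythdf1 (0.0357) and Hnrnpa2b1 (0.0445), against 20.1% of all genes, of which 10.6% were lower and 9.5% higher. The groups did not overlap for the same 3, or 33.3% of the 9, against 26% of all genes, of which 13.4% were lower and 12.6% higher in the KD. The fold changes were positive for 6 readers and negative for 3, with a median of 0.13 and 0.01 over all genes. With so few genes these shares are no result about the readers. A term for replicate 2 in the fit gave 3 calls, Ythdf1, Ythdf2 and Hnrnpa2b1, where 22.1% of all genes passed. Without replicate 2 in either group, 7 of the 9 passed the adjusted threshold, which are Ythdf1 and Ythdf2, lower, and Ythdf3, Ythdc1, Igf2bp3, Hnrnpa2b1 and Fmr1, higher. In that fit the log2 fold change was 0.16 for Ythdf3 (adjusted p = 0.0219), 0.20 for Ythdc1 (adjusted p = 0.00041), 0.42 for Hnrnpa2b1 (adjusted p = 1.67e-08), 0.14 for Fmr1 (adjusted p = 0.00241), 0.44 for Igf2bp3 (adjusted p = 0.0179) and -0.18 for Ythdf1 (adjusted p = 0.00734). It is also the fit in which 52.7% of all genes passed, from replicates whose libraries were close to each other within each group, and in which the oligodendrocyte lineage markers stood at 726 and 750 against 281 and 271 CPM, the microglia markers at 57.6 and 62.7 against 16 and 14.7, and the astrocyte and Bergmann glia markers at 728 and 719 against 482 and 488. These are sums, and single genes could go the other way, as Slc1a2 of the last list did in the fit of all libraries. The part of these cells in the calls was not tested.

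**Figure D4:**
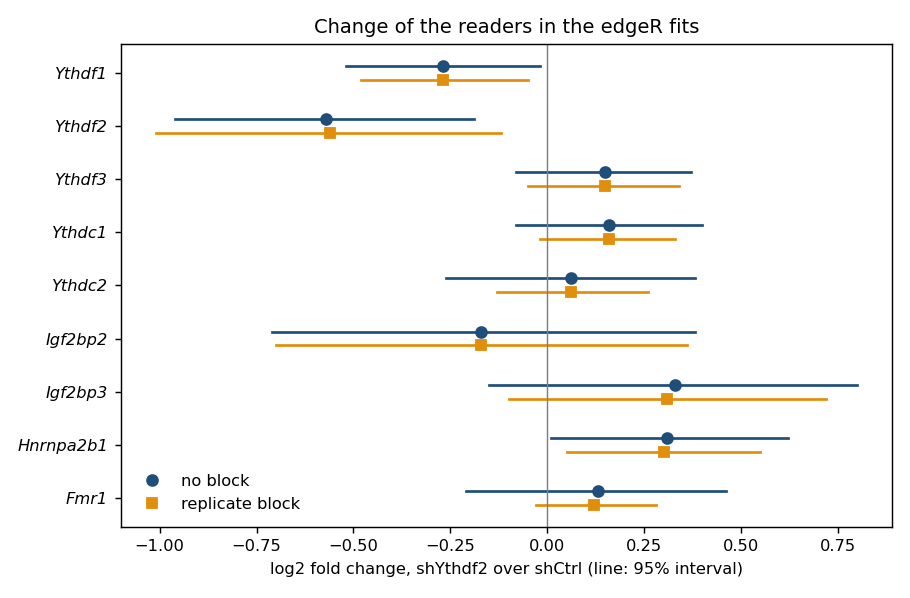
The log2 fold change of the 9 tested readers (horizontal axis, shYthdf2 over shCtrl) is shown with its 95% interval from edgeR's fit, without a block and with the replicate number as a block. In both fits the intervals of Ythdf1, Ythdf2 and Hnrnpa2b1 leave out 0, and those of the other 6 contain it.

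Levels can be set beside each other only per length, so normalized counts were divided by the length of all exons of a gene. In shCtrl, Hnrnpa2b1 was at 2750 ± 67.9 (SD, n = 3) per kilobase and above 99% of all tested genes. Ythdf1 followed at 421 ± 45.3, then Ythdf3 at 275 ± 17.3, Fmr1 at 234 ± 28.2, Ythdf2 at 152 ± 27.5 and Ythdc1 at 129 ± 5.56 (SD, n = 3 each). Ythdf2 was thus the least abundant YTHDF message. Ythdc2 was at 84.0 ± 11.9, Igf2bp3 at 13.8 ± 0.773, Igf2bp2 at 6.42 ± 0.481 and Igf2bp1 at 0.708 ± 0.504. No neighbours in this order had ranges that overlap in shCtrl, but Ythdf2 (135 to 184) and Ythdc1 (123 to 134) were nearly in contact. In the KD, Ythdf2 (88.0 to 110) was below Ythdc1 (128 to 154) and overlapped Ythdc2 (79.1 to 91.8). Divided by the longest transcript in place of all exons, the shCtrl mean of Fmr1 was second at 476 per kilobase, before Ythdf1 at 438, and Ythdc1 at 280 was above Ythdf2 at 169. These places thus depend on the length used. On this scale Fmr1 (410 to 510) and Ythdf1 (398 to 490) overlapped in shCtrl and were not separated, as was so for Ythdf3 (277 to 310) and Ythdc1 (266 to 289).

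**Figure D5:**
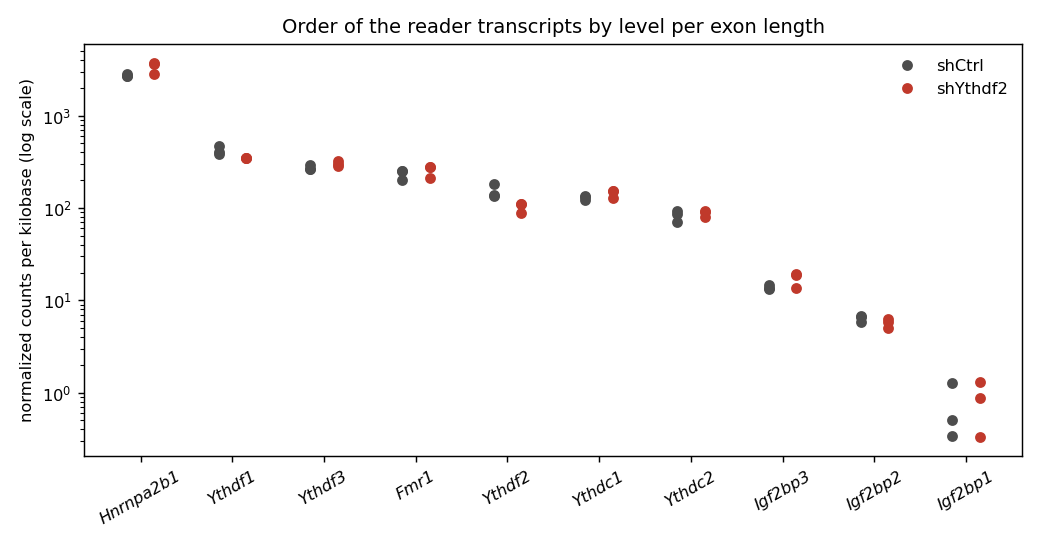
Points give the normalized counts per kilobase of exon of each reader in each library (vertical axis, log scale), ordered by the mean in shCtrl. Hnrnpa2b1 lies near 2750 and Igf2bp1 at 0.34 to 1.28 in shCtrl, with Ythdf2 next to Ythdc1 in the middle.

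The proteins that work with the readers, or resemble them, were read from 5 further lists. Over all genes, 0.604% passed the adjusted threshold in edgeR and 20.1% had an unadjusted p under 0.05. The adjusted threshold was passed by 22.1% with a term for replicate 2, by 18.3% without shCtrl replicate 2 and by 52.7% without replicate 2 of both groups, and the counts under these settings are read against those shares. Of the 7 relatives of the readers without a YTH domain (FXR and HNRNPA family), 0 passed the adjusted threshold in edgeR, DESeq2 or limma-voom, and 1 (14.3%) had an unadjusted p under 0.05 in edgeR. With a term for replicate 2, 1 passed, and without replicate 2 of both groups 5 did. The gene with the unadjusted p under 0.05 was Hnrnpa3, with 2940 ± 427 (SD, n = 3) normalized counts against 4240 ± 1220 (SD, n = 3), and its log2 fold change was -0.53 (SE 0.22, adjusted p = 0.232). It was -0.32 without shCtrl replicate 4 and -0.64 without replicate 2 of both groups (adjusted p = 0.00432). Of 15 further proteins linked to binding of RNA with m6A, 0 passed in edgeR, DESeq2 or limma-voom, with 8 (53.3%) at an unadjusted p under 0.05 in edgeR, 4 higher and 4 lower. This list had more calls once replicate 2 was set apart, with 10 of 15 for a term for replicate 2, 8 without shCtrl replicate 2 and 14 without replicate 2 of both groups. Srsf10, a splicing factor, had the smallest p, and its log2 fold change was 0.36 (SE 0.11, adjusted p = 0.134). It passed with a term for replicate 2 (0.36, adjusted p = 0.0365), with all libraries kept. It also passed without shCtrl replicate 2 (0.43, adjusted p = 0.0251) and without replicate 2 of both groups (0.49, adjusted p = 1.07e-07).

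The enzymes that write and erase the mark were counted in the same way. Of 13 writers and erasers, 0 passed in edgeR, DESeq2 or limma-voom, with 1 (7.69%) at an unadjusted p under 0.05 in edgeR. A term for replicate 2 gave 1 call, and 5 of the 13 passed without replicate 2 of both groups. Alkbh5, an m6A demethylase, was at 1660 ± 125 against 1970 ± 121 normalized counts (SD, n = 3 each), and its log2 fold change was -0.25 (SE 0.10, adjusted p = 0.23), or -0.36 without replicate 2 of both groups (adjusted p = 2.23e-06). Of the 16 genes of mRNA decay that act with YTHDF2 or YTHDC2, such as the CCR4-NOT subunits, 0 passed in any of the 3 tools and 0 had an unadjusted p under 0.05 in edgeR. Of these 16, 3 passed with a term for replicate 2, 2 without shCtrl replicate 2 and 6 without replicate 2 of both groups. Rida, which encodes the adaptor HRSP12 between YTHDF2 and RNase P/MRP, came closest, and its log2 fold change was 0.49 (SE 0.22, adjusted p = 0.256). It was 0.34 without replicate 2 of both groups (adjusted p = 0.135 by edgeR).

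In the list of fetal genes of the let-7 and Lin28 axis, to which the IGF2BP readers belong, 8 of 10 genes were tested and 1 (12.5%) passed, as it did in DESeq2 and limma-voom. With a term for replicate 2, 2 passed, without shCtrl replicate 2, 3 did, and without replicate 2 of both groups, 4 did. Hmga1, an architectural chromatin protein, had 598, 504 and 509 normalized counts in shYthdf2 replicates 1, 2 and 4 and 1230, 1200 and 1200 in shCtrl. It fell by 1.17 on the log2 scale (SE 0.11, adjusted p = 0.0279 by edgeR), and the adjusted p was 0.0377 with the replicate block. Leaving out shYthdf2 replicate 1 or 4 or shCtrl replicate 1 or 4 gave an adjusted p of 0.203 to 0.269, with a log2 fold change of -1.25 to -1.13. In each of these fits 0 of all tested genes passed. Hmga1 passed in edgeR without shYthdf2 replicate 2 (-1.13, adjusted p = 0.0235) and without shCtrl replicate 2 (-1.17, adjusted p = 0.00218). It also passed without replicate 2 of both groups (-1.14, adjusted p = 4.97e-09). Of all genes, 4.7%, 18.3% and 52.7% passed in these 3 fits. Hmga1b, a near-identical copy, had 95.1, 103 and 105 normalized counts in shYthdf2 and 200, 215 and 179 in shCtrl, and reads of these genes may not be told apart. Lin28a and Trim71 were at no more than 9 counts in any library and were not tested.

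The genes whose pattern over the 6 libraries was most like that of Ythdf2 were D430041D05Rik, Lcn2 and Atad1, with Pearson's r of 0.999, 0.991 and 0.988 among 11163 genes with at least 100 normalized counts on average. This is a description over 6 points that share the group difference and the position of replicate 2. D430041D05Rik had 11400 normalized counts in shYthdf2 and 14400 in shCtrl on average, Lcn2 (lipocalin 2, an iron-siderophore binding protein) 191 and 385, and Atad1 (an ATPase of mitochondria and synapses) 1860 and 2240. None of the 3 passed the adjusted threshold in edgeR, with adjusted p-values of 0.176, 0.117 and 0.24.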

How the data were processed

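The values are the counts that the authors deposited, whole numbers of reads per gene in 6 libraries without normalization. By the study's methods, the authors filtered reads, used HISAT and TopHat2 for mapping to GRCm38 and HTSeq for counting, while the submitters' processing notes name Bowtie 0.12.2 and mm9. Whether counting used the strand is not given in the sources used here. Symbols, lengths and sequences came from the GENCODE annotation and genome of GRCm38, which matched 52489 of 53421 identifiers (785 are outside any annotation).

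The test across genes was run in edgeR 4.0.16 (R 4.3.3). The filter filterByExpr by group (minimum count 10, minimum total count 15) kept 17214 genes. TMM normalization, the quasi-likelihood test of shYthdf2 against shCtrl and Benjamini-Hochberg adjustment over all genes tested followed, with a threshold of 0.05. The standard error is the log2 fold change divided by the root of F. Single values were compared by two-sided exact permutation tests. Libraries held 17246821 to 21546595 counts, so genes with few counts, such as the IGF2BP readers, have wide intervals.

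Libraries were grouped by their names. The deviations from the group means correlated between libraries with the same number at 0.252 (replicate 1), 0.36 (replicate 2) and 0.322 (replicate 4). Between replicates 1 and 4 they correlated at 0.101 and 0.126, and with replicate 2 at -0.317 to -0.238. The main test has no term for the replicate number and so leaves this pairing out. The number was fitted as a block as an alternative. By chi-square per degree of freedom, shYthdf2 replicates 2 and 4 were closest to the control of their own number, at 22.1 and 43.7. For shYthdf2 replicate 1 this did not hold, with 53.3 to shCtrl replicate 1, 47.2 to replicate 2 and 47.1 to replicate 4. The alternatives tried were the replicate block, a term for replicate 2, each library left out in turn, replicate 2 of both groups left out, DESeq2 1.42.0, limma-voom (limma 3.58.1), RLE scaling, library size alone, no filter, and a minimum of 10 counts per library. The longest transcript as gene length for the order of levels, DESeq2 on all genes with a count, and the YTHDF sum, shares and ratios without replicate 2 of both groups, were added after the data were seen. Plots and sequences used Python 3.11.15, Biopython 1.88 and matplotlib 3.10.9.

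The named genes are the 10 readers and, from each other list, the genes past the adjusted threshold or else the one with the smallest p, besides the 3 genes most correlated with Ythdf2. Hmga1b, Malsu1, Gm6823, Dffa, Gbf1, Eomes, Slc1a2, Lin28a and Trim71 are named besides, after their values were seen. The readers, the lists and the tests were chosen with earlier results of these data known. The hairpin sequence and proteins were not analysed here.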

Additional observations from a re-analysis of the deposited data

How the results depend on the processing

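Over 16 alternatives, the log2 fold change of Ythdf2 stayed between -0.66 and -0.32 and its adjusted p between 0.00124 and 0.363. It passed the threshold with DESeq2 (-0.58), with a term for replicate 2 (-0.56) and without replicate 2 of both groups (-0.32), but not with DESeq2 on all genes with a count (adjusted p = 0.0504). The number of readers past the threshold, 0 by edgeR, was 1 with DESeq2, 3 with a term for replicate 2 (Ythdf1, Ythdf2 and Hnrnpa2b1, where 22.1% of all genes passed), 0 to 1 with a library left out and 7 without replicate 2 of both groups. With the replicate block, Ythdf2 was at -0.56 (adjusted p = 0.106), 0 readers passed, and no call of a reader changed. With a library left out, Ythdc2 ranged from -0.05 (without shCtrl replicate 2) to 0.14. Ythdf2's share of the YTHDF sum differed by -5.11 to -2.60 percentage points over its alternatives, and the log2 of the sum by -0.222 to -0.0733.

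The number of genes past the threshold, 104 by edgeR, was 1321 with DESeq2, 1137 with DESeq2 on all genes with a count, 24 with limma-voom, 639 without a filter, 232 with the replicate block, 3799 with a term for replicate 2, 0 to 3239 with a library left out and 9186 without replicate 2 of both groups. It was 0 without replicates 1 or 4 of either group, 829 without shYthdf2 replicate 2 and 3239 without shCtrl replicate 2. Of the genes called, 40.4% were higher by edgeR, 56.5% with library size without a factor and 29.2% with limma-voom. The cause of these differences was not tested. Igf2bp1, with 3 to 14 counts, could be fitted in some settings only, at -0.10 to 0.58.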
